A study of Mus musculus with 3 samples.

Results

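The adventitia, the outer coat of the aorta, holds more than 1 kind of fibroblast, and a set of these cells was recognised by transcripts of Hhip and Inmt. Such Hhip/Inmt fibroblasts numbered 977 of 2844 fibroblasts, 25081 cells of at least 2000 unique molecular identifiers (UMIs, each a counted transcript molecule) and 28506 deposited barcodes. Cells had at least 200 genes and under 20% mitochondrial UMIs, and a fibroblast was a cell with Dcn at 0.5% of its UMIs or more, Acta2 and Tagln together under 1%, and fewer than 3 UMIs of C1qa, C1qb and C1qc. Score A summed the UMIs of Hhip, Inmt, Tspan11 and Cpxm1 and score B those of Dpp4, Pi16, Sdk1, Pla1a, Ebf2 and Opcml, and a member had A − B of 2 or more. Fibroblasts with A − B of −2 or less, called Dpp4/Pi16 fibroblasts below, numbered 1360, and 507 lay between. Dcn, Acta2, Tagln, the C1q genes and these 10 transcripts chose the cells, so their levels are a description and no test was made on them.

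The cells came from male mice in which the mouse Apoe gene had been replaced at its own locus by human APOE2, APOE3 or APOE4, with the line backcrossed to C57BL/6J. All 3 groups began a Western diet of 42% fat and 0.2% cholesterol at 12 weeks of age and received it for 16 weeks, and no group on another diet was analysed here. The aorta from arch to iliac bifurcation was digested with enzymes, and 1 droplet library for each genotype was made from pooled cells, of 6 mice for APOE2, of 5 for APOE3 and of 7 for APOE4. With 1 library for a genotype there was no replicate error, a genotype could not be told apart from its library, and no difference between genotypes was tested. Intervals below are exact 95% intervals that cover counting error only. Values in a row of 3 are given in the order APOE2, APOE3 and APOE4, and levels are UMIs of a gene per 1000000 UMIs (CPM), taken over all cells of a class together. Transcripts assigned to mouse Apoe, the replaced gene, stood at 364, 725 and 487 CPM in the Hhip/Inmt fibroblasts, but these reads come from a human allele placed on a mouse reference, so this level was not compared.

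Hhip encodes a cell surface protein that binds hedgehog ligands and is itself switched on by hedgehog signaling, so that it limits the pathway that induces it. In that pathway, ligands released by other cells relieve the block that the receptor Ptch1 places on Smo, and Gli factors then drive target genes, which include Ptch1, Gli1 and Hhip. Inmt encodes an enzyme that transfers methyl groups to indole amines such as tryptamine. Fmod is a small leucine-rich proteoglycan of collagen fibrils, Tgfbi is a matrix protein induced by TGF-β, Tspan11 is a tetraspanin, and Cpxm1 is a secreted carboxypeptidase-like protein. Pi16 and Dpp4 mark a fibroblast class found in the adventitia and connective tissue of many organs.

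Hhip (ENSMUSG00000064325) lies on the minus strand at chr8:79965851-80058006 and Inmt (ENSMUSG00000003477) on the minus strand at chr6:55170626-55175043 (GRCm38, GENCODE M21). The other genes of score A were Tspan11 at chr6:127887589-127953977 on the plus strand and Cpxm1 at chr2:130390775-130397574 on the minus strand. The sequences just upstream of the Hhip and Inmt starts are shown because these 2 genes name the cells: chr8:80058009-80058258 and chr6:55175044-55175240, minus strand, from RefSeq on GRCm38.p6. Capitals mark GGGCGG or its reverse complement CCGCCC, the letters of a GC box, in Hhip, and TATAAA in Inmt.
Hhip: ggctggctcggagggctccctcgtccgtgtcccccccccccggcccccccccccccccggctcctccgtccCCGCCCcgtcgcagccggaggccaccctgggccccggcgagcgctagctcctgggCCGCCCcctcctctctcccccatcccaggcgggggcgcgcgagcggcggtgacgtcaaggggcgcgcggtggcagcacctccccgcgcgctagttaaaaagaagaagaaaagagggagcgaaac
Inmt: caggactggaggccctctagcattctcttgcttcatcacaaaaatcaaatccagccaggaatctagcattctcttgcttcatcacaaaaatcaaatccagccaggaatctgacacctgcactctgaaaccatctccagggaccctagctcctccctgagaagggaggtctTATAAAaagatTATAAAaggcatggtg

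The 250 bases of Hhip were 76% G and C and held 2 matches to GGGCGG or CCGCCC, and the 197 bases of Inmt were 45.7% G and C and held 2 matches to TATAAA. Among 32851 RefSeq promoters, searched on both strands over 250 bases before the start, GGGCGG or CCGCCC occurred in 32.7% and TATAAA or TTTATA in 12.4%. The letters GACCACCCA, bound by Gli factors, or their reverse complement TGGGTGGTC occurred in 0.225% of the promoters and in neither of these windows. A match is a description of letters and not a site.

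Hhip/Inmt fibroblasts numbered 344, 296 and 337 cells, with 3339175, 3221580 and 3302903 UMIs in total and medians of 8656, 10556 and 9217 UMIs and 3099, 3472 and 3028 genes a cell. The median share of mitochondrial UMIs was 1.62%, 1.37% and 2.01%. At this depth 3 counts correspond to 0.898, 0.931 and 0.908 CPM. The score ran without a gap, so its limits were set within a range of values: 43, 22 and 38 members sat at the limit of A − B = 2, and 62, 21 and 54 fibroblasts stood just outside it at 1. Members at the limit held a mean of 4.19, 9.86 and 6.34 UMIs of score A, against 4.84, 4.62 and 5.28 in the cells just outside. The median member had 12.5, 19 and 14 UMIs of score A and 3, 5 and 4 of score B. Barcodes were shared between libraries in 26 (APOE2 and APOE3), 30 (APOE2 and APOE4) and 23 (APOE3 and APOE4) cases, and 0 of these shared barcodes were members in both libraries, although 1 member of APOE2 shared its barcode with a cell of each other library and 1 member of APOE3 with a cell of APOE4. Doublets were not removed, and 6, 1 and 5 members lay among the highest 6% of Scrublet scores in their library.

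**Figure D1:**
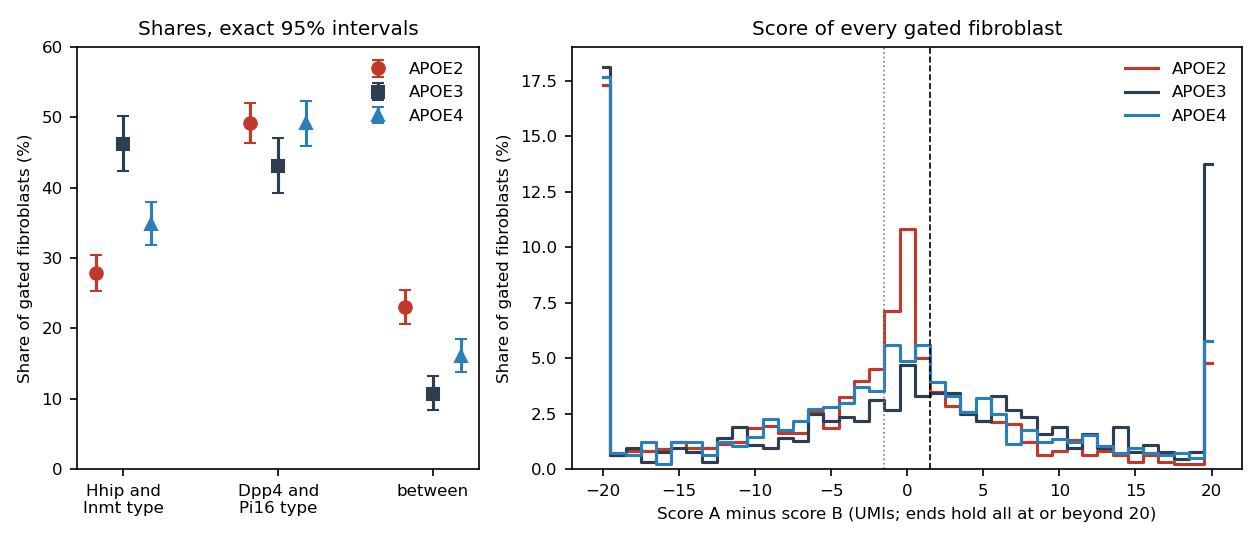
Left, share of fibroblasts (percent) in each score class, 1 point for each library with its exact 95% interval. Right, share of fibroblasts (percent) at each value of score A minus score B in UMIs, 1 line for each library, with the end bins holding all cells at or beyond 20 in either direction. The dashed line marks the lower limit of Hhip/Inmt fibroblasts and the dotted line the upper limit of Dpp4/Pi16 fibroblasts. The Hhip/Inmt share is 27.8% in APOE2, 46.3% in APOE3 and 34.8% in APOE4, and no gap in the score separates the classes.

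The label was checked against its markers. Inmt stood at 1226 (1189 to 1264), 1198 (1161 to 1237) and 946 (913 to 979.6) CPM, Hhip at 140.2 (128 to 153), 232 (216 to 249.8) and 194 (179 to 209) CPM, Tspan11 at 222, 238 and 214 CPM and Cpxm1 at 231, 407 and 359 CPM. Fmod (chr1:134037254-134048277, plus strand) and Tgfbi (chr13:56609523-56639562, plus strand), which the rule did not use, stood at 242 (226 to 259), 603 (577 to 631) and 398 (377 to 421) CPM and 602 (576 to 629), 1000.4 (966 to 1036) and 833 (802 to 865) CPM. Inmt, Hhip and Tspan11 of the 5 label markers chose the cells, so only Fmod and Tgfbi, both detected in every library, bear on the label. Of general fibroblast transcripts outside the rule, Col1a2 and Pdgfra were also present, Pdgfra at 358, 420.3 and 355 CPM. Against the label, Pi16 transcripts were not absent: 394, 530.5 and 468 CPM, with at least 1 Pi16 UMI in 253, 228 and 267 members, while Dpp4 had a UMI in 1, 0 and 0 members. The 0 of 296 and 0 of 337 cells allow shares of cells with a Dpp4 UMI of up to 1.01% and 0.890% when 3 cells are taken as the floor, and the upper ends of the exact 95% intervals were 1.24% and 1.09%.

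Not every member carried the naming transcripts. Both Hhip and Inmt were counted in 81, 119 and 111 members, Inmt without Hhip in 200, 135 and 150, Hhip without Inmt in 26, 18 and 28, and neither in 37, 24 and 48. Most members thus held Inmt, and those without either transcript entered through Tspan11 or Cpxm1. With each cell thinned to 2000 UMIs, Inmt was detected in 69.5, 68.6 and 61.1% of members, Hhip in 17.2, 23.6 and 24.3%, Fmod in 27.6, 53.0 and 44.8% and Tgfbi in 61.0, 69.6 and 72.4%; unthinned, Inmt was detected in 81.7, 85.8 and 77.4% and Hhip in 31.1, 46.3 and 41.2%. In smooth muscle cells, a class that should lack these genes, thinned Inmt was detected in 0.300, 0.600 and 0.10% and Hhip in 0.10, 0.400 and 0.10% of 1000 sampled cells a library, whose median depths before thinning were 13952, 19178 and 15548 UMIs. Inmt and Hhip had chosen the members. Fmod and Tgfbi, outside the score, were detected after thinning in 2, 6 and 1 and in 5, 5 and 3 of these 1000 cells. In Dpp4/Pi16 fibroblasts the thinned shares were 8.72, 25.4 and 21.2% for Fmod and 34.9, 54.0 and 59.2% for Tgfbi. Thinned Tgfbi was also detected in 45.3% (APOE2) and 55.6% (APOE3) of cells set apart by C1q transcripts. Tgfbi was therefore not particular to members.

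To see how far a gene's level rested on its own place in the score, each gene of score A was left out of it in turn. Hhip then stood at 98.2, 173 and 129.7 CPM in the cells chosen by the other 3 genes, against 22.8, 90.7 and 82.0 CPM at the opposite end of the score, log2 ratios of 2.11, 0.93 and 0.66. Inmt stood at 586, 886 and 549 CPM against 344, 557 and 447, log2 ratios of 0.77, 0.67 and 0.30, and the class shrank to 151, 177 and 198 cells. Cpxm1 gave log2 ratios of 0.65, 0.72 and 0.43, and Tspan11 0.75, 0.74 and 0.12 (−0.04 to 0.27 in APOE4). Each gene kept the direction of its type in all 3 libraries without its own vote, at a smaller ratio than with it, and the interval for Tspan11 in APOE4 included 0. The cells were still chosen on these same libraries, so the ratios are descriptive.

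Hhip/Inmt fibroblasts made up the largest share of the fibroblasts in the APOE3 library and the smallest in the APOE2 library. The shares were 27.8% (25.3 to 30.4) of 1236 fibroblasts, 46.3% (42.3 to 50.2) of 640 and 34.8% (31.8 to 37.9) of 968. On the log2 scale APOE2 stood −0.73 (−0.96 to −0.50) and APOE4 −0.41 (−0.64 to −0.18) relative to APOE3, and APOE4 stood 0.32 (0.10 to 0.54) relative to APOE2. Of all cells with at least 2000 UMIs, the class held 3.18%, 4.60% and 4.30%, and on that base the log2 ratio of APOE4 to APOE3 was −0.10 (−0.33 to 0.13), within counting error. Dpp4/Pi16 fibroblasts made up 49.2%, 43.1% and 49.2% of fibroblasts, and the cells between the limits 23.0%, 10.6% and 16.0%. The APOE2 fibroblasts with most UMIs, above 12232, held the fewest members, 16.3% (12.8 to 20.2) against 32.5% and 34.7% in the lowest and middle depth groups of that library, and the part of depth in the shares was not tested. With all cells thinned to 2000 UMIs before scoring the shares were 18.7%, 31.7% and 22.8%, and the order APOE3, APOE4, APOE2 was the same.

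The most abundant transcripts of Hhip/Inmt fibroblasts, leaving out mitochondrial and ribosomal protein genes, included several of matrix and secreted proteins. Dcn, the collagen-binding proteoglycan decorin, stood at 17127, 19404 and 18927 CPM and Mgp, an inhibitor of calcification, at 15795, 19935 and 16247 CPM. Cst3, a secreted inhibitor of cysteine proteases, stood at 12625, 17927 and 15343 CPM and Gsn, an actin-severing protein with a secreted form, at 6411, 7968 and 7547 CPM. Next among secreted products were Sparc at 2667, 3519 and 3407 CPM, Col1a2 at 2359, 3924 and 3269 CPM and Igfbp7 at 2187, 3001 and 2864 CPM. The nuclear RNA Malat1 led the list at 27164, 29742 and 34492 CPM, and the others were Gm42418, Fth1, Ftl1, Tpt1, Eef1a1 and Ubb. A UMI stands for a molecule and not for a length of transcript, so genes are ordered here by CPM, and the efficiency with which each gene is captured is not known.

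Beside the rest of the fibroblasts, the Hhip/Inmt class was set against Dpp4/Pi16 fibroblasts within each library, over genes with at least 100 UMIs in both classes together in every library. Of 7369 genes, 32 (0.434%) were at least 2-fold higher and 73 (0.991%) at least 2-fold lower in Hhip/Inmt fibroblasts in all 3 libraries. Expression chose both classes, so these counts describe the classes and nothing is read from them. Apart from Inmt and Hhip, the named genes that stood higher were Slc6a6, the taurine transporter, Pax1, a transcription factor of the sclerotome and pharyngeal pouches, and Fmod. Slc6a6 stood at 130.3, 265 and 232 CPM against 36.5, 68.2 and 71.2 CPM, log2 ratios of 1.84, 1.96 and 1.70. Pax1 stood at 92.2, 81.0 and 59.0 CPM against 18.7, 17.1 and 19.7 CPM, log2 ratios of 2.30, 2.24 and 1.59. Fmod stood at 242, 603 and 398 CPM against 53.1, 189 and 164 CPM, log2 ratios of 2.19, 1.67 and 1.28. All 3 stood above the other class by more than 2-fold in every library, with the Fmod ratio smallest in APOE4. Fhl2 (1.99, 2.13 and 1.65), Csmd1 (1.48, 2.18 and 2.81), Mdk (1.96, 1.39 and 1.23), Gdf10 (1.39, 1.19 and 1.20), Mylk (1.19, 1.77 and 1.48), Fbln7 (1.68, 1.60 and 1.15), Lsamp (1.16, 1.14 and 1.29), G0s2 (1.12, 1.45 and 1.38), B130024G19Rik (1.85, 1.36 and 1.25) and 9530026P05Rik (1.14, 1.21 and 1.12) completed the 15 named genes, given here by their log2 ratios. Mdk encodes the growth factor midkine, Gdf10 a TGF-β family ligand, Mylk the kinase of myosin light chains and Fbln7 a fibulin.

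The genes that stood lowest against the other class were led by Dpp4, the dipeptidyl peptidase of score B. Dpp4 had 2, 0 and 0 UMIs in Hhip/Inmt fibroblasts against 46.2, 92.9 and 42.8 CPM in Dpp4/Pi16 fibroblasts, at least 99.8-fold lower in APOE3 and at least 47.1-fold in APOE4, counted against 3 UMIs in the library's members. Pla1a, Sdk1 and Opcml, also of score B, were likewise low, Sdk1 with log2 ratios of −3.83, −5.18 and −4.20 and Opcml with −2.55, −3.08 and −2.95. Among genes outside the score, Cd55, an inhibitor of complement activation, stood at 29.0, 17.7 and 15.7 CPM against 156, 250.1 and 147 CPM, log2 ratios of −2.43, −3.82 and −3.22. Tek, the angiopoietin receptor, stood at 2.99, 1.24 and 0.908 CPM against 47.3, 83.3 and 38.3 CPM. In every library Tek reached the minimum of 100 UMIs only through Dpp4/Pi16 fibroblasts, so that a difference was fixed for it. Efhd1, Cmah, Smpd3 and the adhesion receptor Adgrd1 were also among the 10 lowest, Adgrd1 with log2 ratios of −2.66, −4.34 and −3.59. Dpp4, Pla1a and Tek were thus near 0 in Hhip/Inmt fibroblasts, whereas Pi16 kept 394, 530.5 and 468 CPM against 1722, 3931 and 3005 CPM. Of 16 genes of the Pi16-type fibroblast found across tissues, 12 were at least 2-fold lower in all 3 libraries, beside 0.991% of all genes: Pi16 and Dpp4, which chose the cells, and 10 of the 14 outside the score, Cd55, Cd248, Ly6a, Ly6c1, Anxa3, Sema3c, Ackr3, Fn1, Dact2 and Limch1, the last just past 2-fold in APOE4. Dpt of the same list, at 565, 599.7 and 579 CPM, gave log2 ratios of −0.45, −0.56 and −0.47, and Col15a1 stood at 172, 196 and 202 CPM against 172, 188 and 175 CPM.

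**Figure D2:**
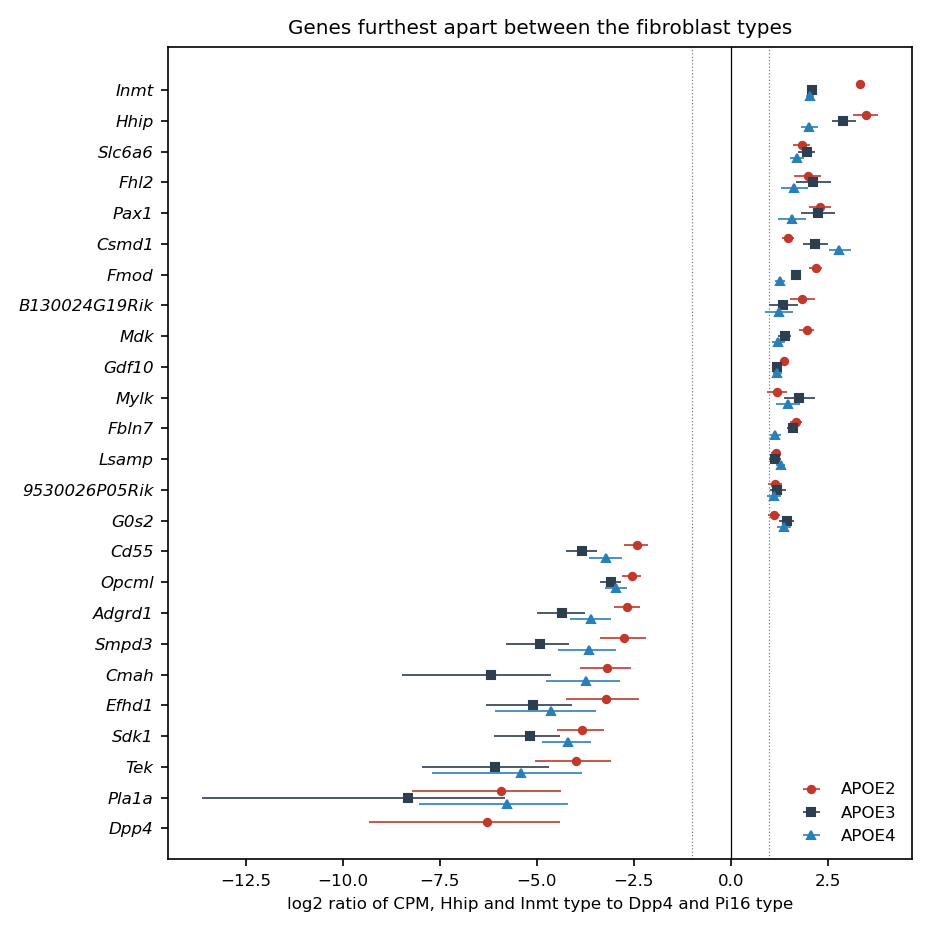
Log2 ratio of CPM in Hhip/Inmt fibroblasts to that in Dpp4/Pi16 fibroblasts for the named genes furthest apart, 1 point for each library with its exact 95% interval as a horizontal line, and dotted lines at 2-fold. Inmt and Hhip head the genes to the right and Dpp4, Pla1a and Tek lie furthest left. Dpp4 has no point for APOE3 and APOE4, where members held 0 UMIs of it.

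Hedgehog genes were described by role. The ligands were near 0: Shh had 0 UMIs in every library, Dhh 0, 1 and 0 and Ihh 1, 1 and 1. Of the receptors and co-receptors, Ptch1, which is also a target gene, stood at 64.4 (56.1 to 73.6), 109.9 (98.7 to 122) and 91.1 (81.1 to 102) CPM and Smo at 51.2, 81.0 and 65.4 CPM. Gas1, a co-receptor, was the most abundant transcript of the list at 572, 638 and 451 CPM, with Boc at 159, 156 and 120.2 and Cdon at 97.0, 93.1 and 69.9 CPM. Receptors and co-receptors were thus all detected in each library. Gli1, the target gene and factor, stood at 23.1 (18.2 to 28.8), 38.5 (32.0 to 45.9) and 35.7 (29.6 to 42.8) CPM, Gli2 at 27.6, 28.2 and 27.2 and Gli3 at 44.3, 35.7 and 40.9 CPM. Relative to Dpp4/Pi16 fibroblasts the log2 ratios of Ptch1 were 0.84, 0.54 and 0.38 and those of Gli1 0.76, 0.68 and 0.26. Of the 9 hedgehog genes outside the score measured in all 3 libraries, 0 were at least 2-fold apart in all 3. Hhip had chosen the cells, and with Hhip left out of the score its log2 ratios were 2.11, 0.93 and 0.66. Hhip, Ptch1 and Gli1 all had their lowest level in APOE2, with log2 ratios of APOE2 to APOE3 of −0.73 (−0.90 to −0.56), −0.77 (−1.02 to −0.52) and −0.74 (−1.17 to −0.32), each within 2-fold.

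Of the TGF-β genes, the ligand Tgfb3 stood at 79.4, 119 and 104 CPM against 39.4, 84.2 and 76.7 CPM in the other class, with Tgfb1 at 27.9, 30.1 and 42.1 and Tgfb2 at 60.2, 39.7 and 57.2 CPM. The receptors Tgfbr1, Tgfbr2, Tgfbr3 and Eng stood between 59.0 and 202 CPM. Ltbp4, which holds latent TGF-β in the matrix, was the most abundant latency gene at 432, 389.9 and 551 CPM. Transcripts of the pathway's ligands, receptors and latency gene Ltbp4 were therefore detected in each library. Among targets, Ccn2 stood at 1015, 1205 and 758 CPM and Tgfbi at 602, 1000.4 and 833 CPM, against 281, 711 and 668 CPM of Tgfbi in Dpp4/Pi16 fibroblasts. Tgfbi, named in the label, exceeded the other class by more than 2-fold in APOE2 but not in APOE3 or APOE4, with log2 ratios of 1.10, 0.49 and 0.32. Of 8 targets, 7 had enough UMIs in all libraries and 0 were 2-fold higher or lower in all 3. Transcripts of the myofibroblast state were low: Acta2 stood at 482, 404 and 381 CPM, although a limit on Acta2 and Tagln was part of the rule, and Postn at 26.1, 16.5 and 32.4 CPM.

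Of the matrix lists, the small proteoglycans and the elastic fibre held genes past 2-fold, and the fibrillar collagens held 0 of 6. Of 12 small leucine-rich proteoglycan genes, 10 were measured. Fmod was the gene at least 2-fold higher in all 3 libraries, beside 0.434% of all genes. Lum stood at 1641, 2223 and 1708 CPM against 1131, 1045 and 882 CPM, log2 ratios of 0.54, 1.09 and 0.95, and Podn, with ratios of 0.95, 0.97 and 0.81, stood higher by less than 2-fold. Col1a1 gave log2 ratios of −0.09, 0.39 and 0.45 and Col1a2 of 0.22, 0.43 and 0.29, while Col3a1, at −1.0, −0.04 and −0.04, was lower in APOE2. Among 9 other collagens measured, Col23a1 was past 2-fold higher in all 3 libraries, at 15.6, 25.5 and 25.7 CPM. Of 18 elastic fibre genes, 16 were measured and 4 were at least 2-fold lower in all 3 libraries, beside 0.991% of all genes: Fbn1, Fbln2, Mfap5 and Emilin2. Fbn1, the microfibril protein fibrillin, stood at 178, 198 and 188 CPM against 682, 889.9 and 565 CPM, log2 ratios of −1.94, −2.17 and −1.59. Mfap5, another microfibril protein, stood at 709.8, 774 and 768 CPM against 1683, 2122 and 1755 CPM, whereas Eln, the elastin gene itself, stood at 422, 415 and 389 CPM against 413, 529 and 602 CPM. The microfibril genes Fbn1 and Mfap5 were therefore low while Eln stayed within 2-fold in each library.

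Among basement membrane genes, Smoc1 was 2-fold higher and Lamb1 2-fold lower in all 3 libraries, of 19 measured. The shares over all genes were 0.434% and 0.991%. Smoc1, a calcium-binding matrix protein, stood at 145, 206 and 173 CPM against 66.1, 90.8 and 85.8 CPM, and Lamb1, a laminin chain, at 19.5, 28.2 and 16.0 CPM against 48.3, 81.5 and 34.5 CPM. Lama2, another laminin chain, stood at 933, 1266 and 1463 CPM against 498, 757 and 887 CPM, log2 ratios of 0.90, 0.74 and 0.72. Nid1, the laminin binder nidogen, stood at 167, 209 and 177 CPM against 302, 483 and 326 CPM. The laminin genes thus differed in direction, Lama2 higher and Lamb1 lower in Hhip/Inmt fibroblasts. Cpz, a carboxypeptidase that binds Wnt proteins, was the protease list's gene past 2-fold in all 3 libraries, at 15, 63.0 and 34.8 CPM against 6.42, 26.5 and 11 CPM. Cpe, a carboxypeptidase of peptide hormones, had log2 ratios of 1.23, 1.28 and 0.85, and Adamts5, an aggrecan-cleaving protease, −0.52, −1.53 and −1.30.

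Of signaling genes, 1 was at least 2-fold higher in all 3 libraries among 10 BMP genes (Gdf10), 1 among 25 growth factor and guidance genes (Angpt2) and 1 of 2 Wnt agonist and target genes (Rspo3), with 0 of 5 Wnt inhibitors and 0 of 2 Wnt ligands. Among the growth factor and guidance genes, Fgf18 and Sema3c were at least 2-fold lower in all 3 libraries. Over all genes, 0.434% were higher and 0.991% lower. Rspo3, a secreted amplifier of Wnt signaling, stood at 19.2 (14.8 to 24.5), 69.5 (60.7 to 79.3) and 43.0 (36.2 to 50.7) CPM against 6.79, 4.51 and 3.45 CPM, log2 ratios of 1.50, 3.95 and 3.64. Angpt2, a ligand of Tek, stood at 28.2 (22.7 to 34.4), 56.5 (48.6 to 65.3) and 61.2 (53.0 to 70.2) CPM against 10.9, 9.62 and 7.71 CPM, log2 ratios of 1.36, 2.55 and 2.99. Both transcripts were scarce in Dpp4/Pi16 fibroblasts of every library, and Tek itself was near 0 in Hhip/Inmt fibroblasts. Gdf10 was the BMP list's gene past 2-fold in all 3 libraries, and Bmp4 stood at 157, 168 and 173 CPM against 92.2, 149.7 and 184 CPM. Of the Wnt inhibitors, Sfrp2 stood at 1219.8, 1952 and 1345 CPM against 473, 1497 and 1263 CPM, Dkk3 at 217, 326 and 257 against 138, 152 and 139.5 CPM and Sfrp4 at 271, 187 and 183 against 476, 402 and 404 CPM. Cxcl12, a chemokine of stromal cells, stood at 887, 971 and 645 CPM against 482, 464 and 359 CPM, log2 ratios of 0.88, 1.07 and 0.85. Of methyl transfer and amine genes, 0 of the 4 measured outside the score were past 2-fold in all 3 libraries, with Nnmt at 108, 93.7 and 121 CPM against 96.1, 94.4 and 107 CPM. Hsd11b1, which regenerates active glucocorticoid, gave log2 ratios of 0.84, 0.85 and 0.97, and Aldh1a3, a retinoic acid enzyme, was at least 2-fold lower in all 3 libraries.

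Transcription factors with a positional pattern along the body were also described. The 28 Hox genes together stood at 423, 469 and 362 CPM in Hhip/Inmt fibroblasts, 208, 274 and 259 CPM in Dpp4/Pi16 fibroblasts and 205, 236 and 256 CPM in smooth muscle cells. The sum was highest in Hhip/Inmt fibroblasts of all 3 libraries, and Hoxb7 was 2-fold higher than in Dpp4/Pi16 fibroblasts in each, with log2 ratios of 1.34, 1.03 and 1.08. Hoxa7 gave ratios of 1.61, 1.18 and 0.60 and Hoxb8 1.75, 1.56 and 0.38. The aorta was digested whole, so the region a cell came from is not known. Of 30 fibroblast transcription factors measured, Nr2f2, a nuclear receptor of venous and mesenchymal cells, was 2-fold higher in all 3 libraries. Ebf2, of score B, was 2-fold lower in all 3. The shares over all genes were 0.434% and 0.991%. Nr2f2 stood at 582, 899 and 739.7 CPM against 235, 338 and 352 CPM, Ebf1 at 657, 537 and 669 against 956, 1222 and 1161 CPM and Klf5 at 16.5, 28.9 and 30.6 against 3.27, 6.01 and 12.0 CPM.

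Cells within the class were not alike. Among 2695 genes with a mean of at least 0.1 UMI a cell in each library, thinned to 2000 UMIs, the variance relative to the mean (Fano factor) was highest for Mgp at 38.4, 46.8 and 31.8, followed by Cst3, Gm42418 and Malat1. Mmp3, a matrix metalloproteinase, had Fano factors of 10.5, 15.4 and 15.7, Sfrp2 10.3, 14.4 and 11 and Cytl1, a secreted cytokine-like protein of cartilage, 9.89, 13.6 and 9.70. Cytl1 was detected in 12.2, 14.5 and 18.1% of members after thinning, and the 10% of cells with most of it held 96.4, 94.6 and 88.4% of its UMIs. Sfrp2 was detected in 40.4, 44.3 and 47.2% of members, with 63.2, 56.9 and 55.8% of UMIs in the top 10% of cells. Cytl1 UMIs therefore lay in few cells and those of Sfrp2 in more. The other most variable genes were Dcn, Gsn, Sparc, Igfbp5, Fos, Mt1, Cxcl1 and Hspa1a. Across the 344, 296 and 337 cells of each library at equal depth, Fos and the heat shock gene Hspa1a had Spearman correlations of 0.48, 0.58 and 0.52, Mgp and Cst3 0.51, 0.48 and 0.33, and Lum and Mgp 0.45, 0.31 and 0.42, values that are descriptions over cells sharing a library and a fixed total. The naming genes Hhip and Inmt gave −0.16, 0.10 and −0.06, and Inmt and Pi16 gave 0.17, 0.29 and 0.35. The score that chose the cells holds these genes, so nothing is read from their correlations.

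Members called positive for Sfrp2, or for Cytl1, at a cut of 2 UMIs were set against the remaining members. The choice was made after the variable genes were seen, so no test was made. The cut was made on counts after each member was thinned to 2000 UMIs. Members outside the Sfrp2 group therefore still held Sfrp2 in full counts, 258, 272 and 321 UMIs, more than their number of cells. Levels given for these groups are from full counts. Sfrp2-positive cells numbered 103, 107 and 123 (29.9%, 36.1% and 36.5% of members) and Cytl1-positive cells 30, 31 and 42 (8.72%, 10.5% and 12.5%). Only 2, 2 and 3 cells were both, which is 1.94%, 1.87% and 2.44% of the Sfrp2-positive and 6.67%, 6.45% and 7.14% of the Cytl1-positive cells. Median depths were 9151, 10984 and 9001 UMIs in Sfrp2-positive cells and 10119, 10072 and 10717 UMIs in Cytl1-positive cells.

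In Sfrp2-positive cells, 14 of 4418 genes other than Sfrp2 were at least 2-fold higher and 7 at least 2-fold lower than in other members in all 3 libraries. Ccn5, a secreted regulator of growth factor signaling, stood at 649, 729 and 624 CPM against 68.4, 88.8 and 71.2 CPM. The crosslinking enzyme Lox stood at 182, 220.2 and 196 CPM against 79.5, 74.3 and 48.9 CPM and Fbln5, which assembles elastic fibres, at 867, 1404 and 884 CPM against 333, 627 and 359.9 CPM. Vegfd, a lymphatic growth factor, stood at 376, 859 and 496 CPM against 142, 199 and 97.3 CPM and Thbs2 at 113, 179 and 134 CPM against 37.7, 86.8 and 31.7 CPM. Gm26771, Nkain2, Sntg2, Chrdl1 and Svep1 were also higher in Sfrp2-positive cells of every library. Fmod, a label gene, stood at 385, 974 and 580.1 CPM against 173, 379 and 301 CPM, about 2-fold higher with Sfrp2, whereas Hhip stood at 156, 243 and 264 CPM against 133, 226 and 156 CPM and Inmt at 1202, 1378 and 1252 CPM against 1238, 1089 and 781 CPM. The label gene Tspan11 stood at 211, 181 and 165 CPM against 227, 273 and 239.8 CPM, lower with Sfrp2 past counting error in APOE3 and APOE4, and Tgfbi at 729.9, 1247 and 939 CPM against 541, 851 and 777 CPM. Sparcl1, a matrix glycoprotein related to Sparc, stood at 15.6, 20.5 and 14.7 CPM against 163, 183 and 98.7 CPM and Csmd1 at 121, 23.8 and 34.6 CPM against 269.9, 216 and 265 CPM, both lower in Sfrp2-positive cells.

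In the fewer Cytl1-positive cells, whose counting error was larger, 15 of 4418 genes other than Cytl1 were at least 2-fold higher and 46 at least 2-fold lower than in other members in all 3 libraries. S100a4, a calcium-binding protein, stood at 977, 580.4 and 648 CPM against 207, 134 and 205 CPM and Serpine2, a serine protease inhibitor, at 752, 238 and 252 CPM against 92.1, 54.6 and 98.0 CPM. Bhlhe40 at 154, 147 and 265 CPM against 46.1, 41.1 and 82.8 CPM, Prss12 at 201, 218 and 122 CPM against 47.4, 52.9 and 47.8 CPM and the laminin chain Lamc3 at 167, 290.2 and 182 CPM against 40.6, 100.2 and 82.1 CPM were also higher. Mgp stood at 23828, 39093 and 26692 CPM against 14676, 17614 and 14211 CPM, higher in the Cytl1-positive cells of every library. Inmt, by contrast, stood at 360.1, 442 and 317 CPM against 1347, 1289.7 and 1068 CPM and Fmod at 83.3, 198 and 119 CPM against 264, 653 and 453 CPM, while Hhip stood at 225, 187 and 102 CPM against 128, 238 and 212 CPM without a shared direction. C7, a complement component, stood at 51.4, 69.0 and 85.4 CPM against 779, 424 and 435 CPM and Ccl11, the chemokine eotaxin, at 4.90, 31.6 and 9.28 CPM against 157, 183 and 111 CPM. Defining cartilage transcripts were not detected in them: Acan had 0 UMIs and Col2a1 and Matn1 had 0 UMIs in the members of every library, while Sox9 stood at 80.8, 57.5 and 100.2 CPM against 26.3, 24.4 and 50.6 CPM. Of the other label genes, Tspan11 stood at 252, 261 and 223 CPM against 218, 236 and 212 CPM and Tgfbi had log2 ratios of −1.13, −1.06 and 0.02. Inmt and Fmod were thus lower in the Cytl1-positive cells of every library, Tspan11 was not, and Tgfbi was lower in APOE2 and APOE3. Cytl1 itself was not particular to members, since Dpp4/Pi16 fibroblasts held 258, 383 and 505 CPM of it.

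**Figure D3:**
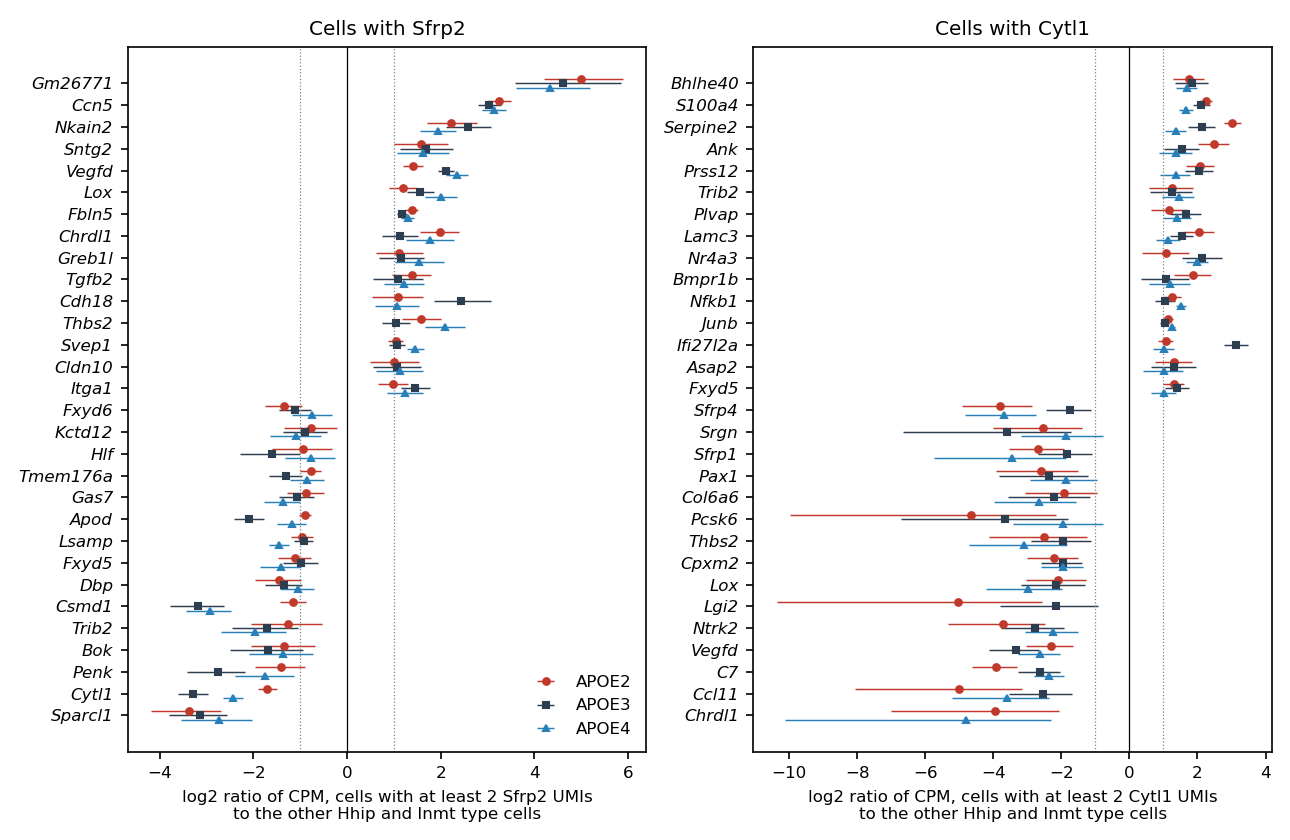
Log2 ratio of CPM in Sfrp2-positive (left) or Cytl1-positive (right) members to the other members. The cut of 2 UMIs that chose them was made on counts thinned to 2000 UMIs a cell. Each library has 1 point with its exact 95% interval as a horizontal line, and dotted lines mark 2-fold. Gm26771 and Ccn5 lie furthest right and Sparcl1 and Cytl1 among the furthest left for Sfrp2, while S100a4 and Serpine2 lie right and C7, Ccl11 and Lox left for Cytl1. A gene without UMIs in a subgroup (Chrdl1 in APOE3 and Lgi2 in APOE4, for Cytl1) has no point.

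Markers of other cell types were summed in the members. The 10 smooth muscle markers stood at 1195, 1052 and 1001 CPM, with Acta2 the most abundant, against 48404, 56129 and 51826 CPM in smooth muscle cells. The 10 macrophage markers stood at 20.1, 11.2 and 13.6 CPM, led by Lyz2, with Adgre1 at 0 in every library, although C1q transcripts were limited by the rule. The 10 endothelial markers stood at 60.5, 32.9 and 53.9 CPM, nearly all of them Pecam1, and Tie1 was at 0 in every library. Of 6 pericyte markers, Higd1b was at 0 and Abcc9, a potassium channel subunit, made up most of the sum of 556, 596 and 510.5 CPM. T lymphocyte markers stood at 8.68, 1.55 and 41.8 CPM, the APOE4 sum led by Trbc2, of which 1 cell held 56 of 64 UMIs. B lymphocyte, neutrophil, adipocyte and Schwann markers each summed to 14.1 CPM or less, and the 6 mesothelial markers to 0.898, 0.310 and 0 CPM. The 8 chondrocyte markers stood at 576, 475 and 753 CPM, of which Cytl1 made up 539, 444 and 692 CPM. Cytl1 also led this list in Dpp4/Pi16 fibroblasts, at 258, 383 and 505 CPM. The erythroid sum stood at 5867, 15.5 and 800.2 CPM and the B lymphocyte sum at 0.898, 1.86 and 9.39 CPM. The erythroid sum was thus highest in APOE2, and both lymphocyte sums were highest in APOE4.

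The study asked how apoE isoforms shape the cells of the aorta on a Western diet, and the 3 genotypes were therefore set side by side within Hhip/Inmt fibroblasts. Transcripts of acute phase and complement proteins were most abundant in APOE2, immediate early and heat shock transcripts in APOE4, and Fmod, Rspo3 and Cpz in APOE3. Among genes with at least 100 UMIs over both libraries, APOE2 was at least 2-fold higher than APOE3 for 64 of 7552 (0.847%) and at least 2-fold lower for 44 (0.583%). APOE4 was higher than APOE3 for 105 of 7398 (1.42%) and lower for 31 (0.419%), and higher than APOE2 for 106 of 7470 (1.42%) and lower for 87 (1.16%). The median gene stood −0.09 on the log2 scale in both APOE4 comparisons, and with that shift removed the splits were 147 and 21 against APOE3 and 132 and 67 against APOE2. The comparisons share libraries, so the lists are not independent of each other.

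**Figure D4:**
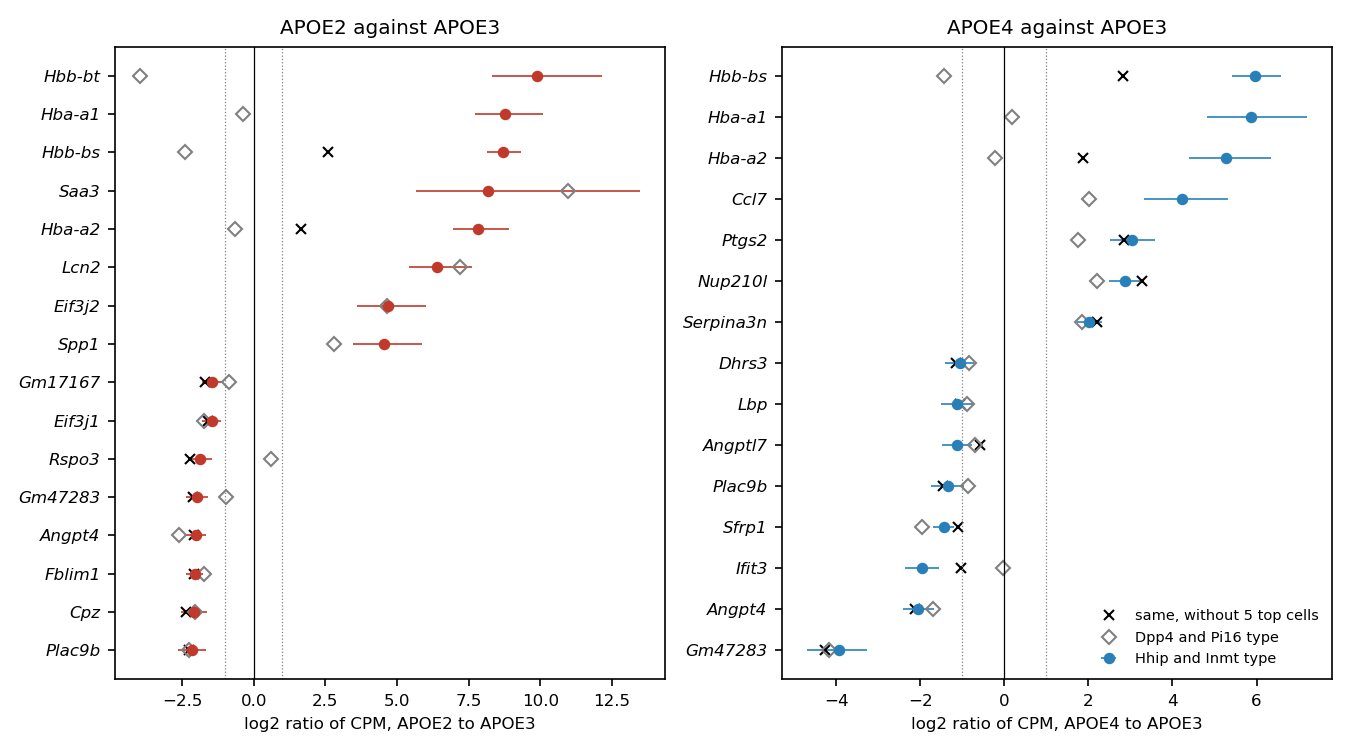
Log2 ratios of CPM of APOE2 to APOE3 (left) and APOE4 to APOE3 (right) for named genes in Hhip/Inmt fibroblasts (filled circles with exact 95% intervals), in Dpp4/Pi16 fibroblasts (diamonds) and in Hhip/Inmt fibroblasts with the 5 cells of most UMIs of the gene left out of each library (crosses), with dotted lines at 2-fold. The haemoglobin genes lie among the furthest right, the crosses of Hbb-bs and Hba-a2 lie lower and the haemoglobin diamonds lie near or below 0. No cross is drawn where a library was left with fewer than 3 UMIs (Hbb-bt, Hba-a1, Saa3, Lcn2, Eif3j2 and Spp1 on the left, Hba-a1 and Ccl7 on the right).

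Acute phase proteins, which the liver and stromal cells secrete in inflammation, were among the genes with the largest ratios of APOE2 to APOE3, beside haemoglobin. Saa3, serum amyloid A3, stood at 88.9 (79.1 to 99.7), 0.310 (0.00786 to 1.73) and 0.303 (0.00767 to 1.69) CPM, with UMIs in 10, 1 and 1 cells. Lcn2, the iron-siderophore binder lipocalin, stood at 209.9 (195 to 226), 2.48 (1.07 to 4.89) and 2.42 (1.05 to 4.77) CPM, with UMIs in 32, 6 and 3 cells. Both transcripts rested on few cells: the 5 cells with most UMIs held 96.6% of Saa3 and 87.6% of Lcn2 in APOE2. The 9 acute phase genes together stood at 605, 47.8 and 151 CPM, against 1485, 83.6 and 219 CPM in Dpp4/Pi16 fibroblasts and 96.3, 1.54 and 2.31 CPM in smooth muscle cells, with APOE2 highest and APOE3 lowest in all 3 classes. Of the 9, 4 reached the minimum of 100 UMIs in APOE2 and APOE3 together, but Saa3, Lcn2 and Hp, with 1, 8 and 25 UMIs in APOE3, reached it only through APOE2, so that a difference was fixed for these 3. Serpina3n, a protease inhibitor, was spread over 152, 69 and 210 cells and stood at 253 (236 to 271), 35.7 (29.5 to 42.8) and 145 (132 to 158) CPM, also higher in APOE4 than APOE3, at a log2 ratio of 2.02 (1.72 to 2.33). Spp1, osteopontin, stood at 50.3, 2.17 and 11.5 CPM with 91.7% of its APOE2 UMIs in 5 cells. With 7 UMIs in APOE3, Spp1 reached the minimum of 100 UMIs only through APOE2, so that a difference was fixed.

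Complement genes followed with broader expression. C3, the central component, stood at 1171 (1135 to 1209), 460.0 (437 to 484) and 371 (351 to 393) CPM, C4b at 339, 86.0 and 101 CPM and Clu, a complement inhibitor, at 189.6, 44.4 and 61.5 CPM. The log2 ratios of APOE2 to APOE3 were 1.35 (1.26 to 1.44), 1.98 (1.79 to 2.18) and 2.09 (1.83 to 2.37), and these 3 of 11 measured complement genes were past 2-fold, beside 0.847% of all genes. Serping1, an inhibitor of the first complement component, stood at 2080.4, 2288 and 2028 CPM, above these 3 genes in each library, and was within 2-fold. The complement genes past 2-fold were thus less abundant than Serping1. Ly6a, a surface protein of the Pi16-type fibroblast, stood at 826, 317 and 365 CPM, Ly6c1 at 149, 24.5 and 46.9 CPM and Apod, a lipid carrier, at 864, 229 and 179 CPM. Metal-binding Mt1 stood at 1684, 742 and 1391 CPM and Mt2 at 429, 159 and 251 CPM, both lowest in APOE3. Cxcl14 stood at 33.8, 0.621 and 0 CPM, with 7 APOE2 members holding a UMI and 50 and 55 of its 113 APOE2 UMIs in members with A − B of 2 and of 3 to 5, against 0 at 12 or more. Prg4, lubricin, stood at 245, 23.3 and 69.3 CPM against 1528, 31.3 and 64.5 CPM in Dpp4/Pi16 fibroblasts. Gsta3, a glutathione transferase, stood at 97.9, 23.9 and 14.2 CPM and Plac8 at 70.7, 7.14 and 6.96 CPM. Each was lower in APOE4 than APOE2, with log2 ratios of −2.78 (−3.26 to −2.34) and −3.34 (−4.03 to −2.72). In that comparison both reached the minimum of 100 UMIs only through APOE2, so that a difference was fixed. Serpina3n and 3 of 11 complement genes were thus past 2-fold higher in APOE2 than APOE3 with at least 100 UMIs in APOE3.

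Of the 32 genes at least 2-fold higher in Hhip/Inmt than in Dpp4/Pi16 fibroblasts in all 3 libraries, 24 were lowest in APOE2, 1 in APOE3 and 7 in APOE4. Without Inmt and Hhip of the score, 23 of 30 (76.7%) were lowest in APOE2, against 25.9% of all 7369 genes measured, and since these genes were chosen on the same members nothing is read from the difference. Inmt at 1226, 1198 and 946 CPM, Pax1 at 92.2, 81.0 and 59.0 CPM and Csmd1 at 222, 143 and 184 CPM were the 3 highest in APOE2. Fmod stood −1.32 (−1.44 to −1.20) and Rspo3 −1.86 (−2.28 to −1.45) on the log2 scale in APOE2 relative to APOE3, with Rspo3 counted in 25, 48 and 42 cells. Cpz stood −2.07 (−2.55 to −1.62) and Angpt2 −1.0 (−1.38 to −0.64). In Dpp4/Pi16 fibroblasts the Rspo3 ratio was 0.59, from few UMIs, and that of Cpz −2.04. Fmod in Dpp4/Pi16 fibroblasts also stood lowest in APOE2, at 53.1, 189 and 164 CPM. Vegfd at 218, 448 and 237 CPM, Rbp4, a retinol carrier, at 381, 769 and 685 CPM and Lamc3 at 56.0, 121 and 98.4 CPM were likewise past 2-fold lower in APOE2 than APOE3. Of 10 small proteoglycan genes measured, Fmod was the gene past 2-fold lower, beside 0.583% of all genes. The list's median log2 ratio was −0.44, beside 0.01 over all genes. Fibrillar collagens had a median of −0.39 with 0 of 6 past 2-fold, Col1a1 at 988, 1816 and 1432 CPM. Since the class boundary is drawn by expression, the place of that boundary in each library and the level within it cannot be told apart.

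Fblim1 was low in APOE2 in all 3 classes of cell compared. Fblim1, a filamin-binding adhesion protein, stood at 35.3 (29.3 to 42.3), 146 (133 to 160.0) and 140.5 (128 to 154) CPM, with log2 ratios of APOE2 to APOE3 of −2.05 (−2.35 to −1.75) here, −1.75 in Dpp4/Pi16 fibroblasts and −1.29 in smooth muscle cells. Eif3j1, a subunit of a translation initiation factor, stood at 32.3, 89.7 and 109 CPM and Eif3j2 at 55.4, 2.17 and 1.82 CPM, in opposite order. The 2 are near-identical copies whose reads the counting could divide, so their separate levels are uncertain. Plac9b stood at 13.5, 59.3 and 23.3 CPM and also has a close copy, and Gm17167 stood at 27.3, 74.5 and 59.9 CPM. Angpt4, an angiopoietin, stood at 23.7 (18.7 to 29.5), 96.2 (85.8 to 108) and 23.3 (18.4 to 29.1) CPM, higher in APOE3 than in either other library by about 4-fold. The log2 ratio to APOE3 was −2.02 (−2.40 to −1.66) in APOE2, and in APOE4 it was −2.05 (−2.42 to −1.68). In Dpp4/Pi16 fibroblasts these were −2.60 and −1.70, and in smooth muscle cells −0.16 and −0.31. The Angpt4 difference was therefore large in both fibroblast classes and small in smooth muscle cells.

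Immediate early genes, transcription factors and regulators induced within minutes of a stimulus, formed the list with most genes past 2-fold higher in APOE4. Of 24 measured genes of this list, which also holds heat shock genes and is known to respond to tissue dissociation, 10 were at least 2-fold higher in APOE4 than APOE3 and 13 higher than in APOE2, beside 1.42% of all genes in each comparison, and 0 were 2-fold lower in either. Fos stood at 924 (892 to 958), 1311 (1272 to 1351) and 3370.1 (3308 to 3433) CPM, Fosb at 292, 349 and 1071 CPM, Egr1 at 1218, 1199.7 and 2705 CPM and Junb at 742, 939.6 and 1833 CPM. The log2 ratios of APOE4 to APOE3 were 1.36 (1.31 to 1.41) for Fos, 1.62 (1.52 to 1.72) for Fosb and 1.17 (1.12 to 1.23) for Egr1, and the list's median was 0.88. Ier3 at 182, 114 and 441 CPM, Atf3 at 194, 132 and 416 CPM and the cytokine brake Socs3 at 48.8, 60.2 and 155 CPM were likewise past 2-fold, with Nr4a1, Zfp36, Btg2 and Klf4. Gadd45b, a stress sensor outside the list, stood at 195, 294 and 763 CPM. Detected Fos transcripts were widespread, in 45.6, 48 and 76.0% of members after thinning. The summed list stood at 13738, 14034 and 25559.9 CPM here, 15648, 13272 and 22116 CPM in Dpp4/Pi16 fibroblasts and 21904, 24359.7 and 33245 CPM in smooth muscle cells. APOE4 was thus highest in all 3 classes, and the part of cell handling in this result was not tested.

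**Figure D5:**
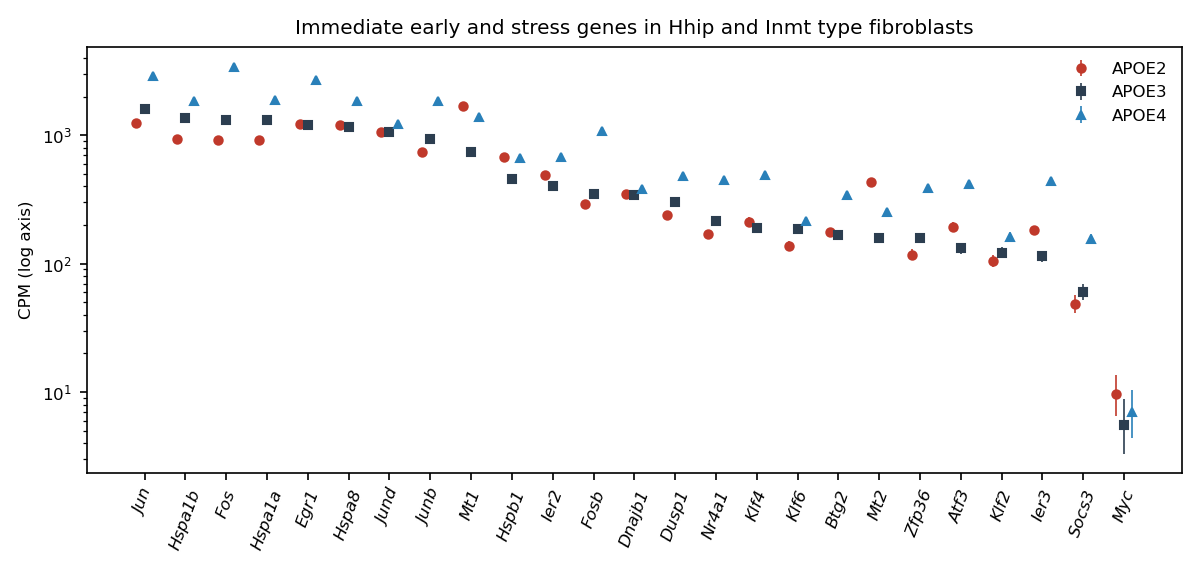
Level of 25 immediate early and stress genes in Hhip/Inmt fibroblasts, in CPM on a vertical log axis, 1 point for each library with its exact Poisson 95% interval as a vertical line. APOE4 points lie highest for most genes, among them Fos, Fosb and Egr1, while Mt1 and Mt2 are highest in APOE2 and Myc is near 10 CPM or lower in each library.

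Several inflammatory mediators were also higher in APOE4 than in APOE3, with many of their UMIs in few cells. The 17 chemokine and cytokine genes together stood at 1845, 1729 and 1719 CPM, so their sum was not higher in APOE4. Ptgs2, the inducible cyclooxygenase, stood at 19.8 (15.3 to 25.1), 10.9 (7.57 to 15.1) and 88.4 (78.6 to 99.2) CPM, 3.02 (2.52 to 3.57) on the log2 scale in APOE4 relative to APOE3, with UMIs in 32, 18 and 57 cells and, with 35 UMIs in APOE3, past the minimum of 100 UMIs only through APOE4. Ccl7, a monocyte chemokine, stood at 37.1 (30.9 to 44.3), 3.10 (1.49 to 5.71) and 58.4 (50.5 to 67.3) CPM, with UMIs in 30, 7 and 32 cells. In APOE4, 64.4% of Ptgs2 and 60.6% of Ccl7 UMIs lay in 5 cells, and without each library's 5 top cells the log2 ratio of Ptgs2 was 2.85, while Ccl7 was left with 2 UMIs in APOE3, too few for a ratio. Of 12 chemokine and cytokine genes measured, 5 were past 2-fold higher than in APOE3, beside 1.42% of all genes. They were Ccl2, Ccl7, Cxcl1, Cxcl2 and Il6. Ccl7, Cxcl2 and Il6, with 10, 29 and 8 UMIs in APOE3, reached the minimum of 100 UMIs only through APOE4, so that a difference was fixed for these 3. Cxcl1 stood at 263, 174 and 467 CPM, Ccl2 at 30.2, 16.1 and 45.4 CPM and Il6 at 3.29, 2.48 and 49.7 CPM, whereas Cxcl12, the most abundant, stood at 887, 971 and 645 CPM, lowest in APOE4. Relative to APOE2, only Il6 of this list was past 2-fold higher, beside 1.42% of all genes. Cxcl14 and Il33 were past 2-fold lower, beside 1.16% of all genes. Il6 (11 UMIs in APOE2) and Cxcl14 (0 UMIs in APOE4) reached the minimum only through the library where they were high. Sox9, a factor of cartilage cells, stood at 32.9, 27.9 and 58.7 CPM, past 2-fold higher in APOE4 than APOE3.

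Nup210l, Pde4c and Gm26532 stood highest in APOE4 in Hhip/Inmt fibroblasts and in both other classes compared. Nup210l, a nucleoporin-like gene, stood at 19.5 (15 to 24.8), 19.6 (15 to 25) and 143 (130.3 to 156) CPM, with log2 ratios of APOE4 to APOE3 of 2.87 (2.49 to 3.27) here, 2.20 in Dpp4/Pi16 fibroblasts and 1.22 in smooth muscle cells. Pde4c, a cyclic AMP phosphodiesterase, stood at 7.19, 19.9 and 52.7 CPM, with ratios of 1.41, 3.36 and 1.35 in the same 3 classes. Gm26532 stood at 29.3, 55.3 and 129 CPM, with ratios of 1.22, 1.85 and 1.42. The ratios of APOE4 to APOE2 in Dpp4/Pi16 fibroblasts and smooth muscle cells were 2.83 and 1.21 for Nup210l, 3.03 and 2.16 for Pde4c, and 2.14 and 1.14 for Gm26532. Gm47283, a Y chromosome gene at chrY:90784738-90816464, stood at 22.5 (17.7 to 28.2), 88.2 (78.2 to 99) and 5.75 (3.46 to 8.98) CPM, lowest in APOE4, with ratios to APOE3 of −3.94, −4.18 and −3.76. Of genes elsewhere on the Y chromosome, Ddx3y at 72.8, 76.4 and 96.3 CPM and Eif2s3y at 57.2, 50.6 and 42.1 CPM were within 2-fold. The ratios of APOE4 to APOE3 of Nup210l, Pde4c, Gm26532 and Gm47283 had the same direction in the 3 classes of cell, that of Gm47283 being fixed in Hhip/Inmt fibroblasts.

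Lists other than the acute phase, chemokine and immediate early genes held from 0 to 3 genes past 2-fold in a direction. Of 8 tendon and cartilage genes measured, Cilp, Prg4 and Crispld1 were past 2-fold higher in APOE2 than APOE3, beside 0.847% of all genes. Cilp, Prg4 and Angptl7 were past 2-fold lower in APOE4 than APOE2, beside 1.16% of all genes. Of 11 chemokine and cytokine genes measured, Ccl7, Cxcl2 and Cxcl14 were past 2-fold higher in APOE2 than APOE3, beside 0.847% of all genes. Each reached 100 UMIs only through APOE2. Cilp, Fabp4, Ifit1, Sost and Tcf21 were likewise under 50 UMIs in the library where they were low. In both comparisons with APOE3, 0 genes were past 2-fold among hedgehog, TGF-β ligand, receptor and latency, fibrillar collagen, elastic fibre, BMP, IGF, oxidant and ER stress, and methyl transfer genes. Among lipid genes, Fabp4, a fatty acid carrier, stood at 37.4, 13.3 and 27.9 CPM, past 2-fold higher in both APOE2 and APOE4 than APOE3, and Abca1, a cholesterol exporter, at 126, 91.6 and 81.7 CPM within 2-fold. Of 12 interferon and antigen presentation genes measured, Ifit1 and Ifit3 were past 2-fold lower in APOE4 than APOE3, beside 0.419% of all genes. Irf1 stood at 114, 169 and 292 CPM, past 2-fold higher in APOE4 than APOE2. Sost, a Wnt inhibitor of bone, stood at 11.4, 17.4 and 27.6 CPM and was past 2-fold higher in APOE4 than APOE2, while Igfbp3 at 64.7, 33.5 and 18.8 CPM and Gpx3, an extracellular peroxidase, at 529, 379.6 and 209.5 CPM were past 2-fold lower. Of transcription factors, Sox4 at 34.4, 24.5 and 50.6 CPM and Tcf21 at 20.1, 21.4 and 10.3 CPM were past 2-fold higher and lower, respectively, in APOE4 than APOE3, and Sox4 was no longer past 2-fold without the 5 cells of each library with most of its UMIs.

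The 31 genes lower in APOE4 than APOE3 became 50 when the 5 cells with most UMIs of each gene were left out. Sfrp1, a Wnt inhibitor, stood at 196 (181 to 211), 141 (129 to 155) and 51.8 (44.3 to 60.1) CPM, a log2 ratio of −1.45 (−1.71 to −1.19), and −1.95 in Dpp4/Pi16 fibroblasts. Ifit3, an interferon-induced gene, was lower in APOE4 than APOE3 by a log2 ratio of −1.96 (−2.38 to −1.57), but 5 cells held 60.6% of its APOE3 UMIs and the ratio in Dpp4/Pi16 fibroblasts was −0.03. Angptl7 stood at 76.1, 65.5 and 30.0 CPM and lay within 2-fold, at −0.57, without the 5 top cells of each library. Lbp, which binds lipopolysaccharide, at 64.4, 57.1 and 26.3 CPM and Dhrs3, a retinaldehyde reductase, at 56.6, 63.9 and 30.6 CPM stayed past 2-fold lower. Sfrp1, Lbp and Dhrs3 therefore stood lower in APOE4 without resting on 5 cells. Sntg1, a syntrophin, stood at 88.3, 22.0 and 13.0 CPM, past 2-fold lower in APOE4 than APOE2.

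Haemoglobin transcripts gave some of the largest ratios against APOE3 and rested on a handful of cells. Hbb-bs stood at 3332, 8.07 and 503 CPM, Hba-a1 at 939.8, 2.17 and 128 CPM, Hba-a2 at 706, 3.10 and 120.5 CPM and Hbb-bt at 874, 0.931 and 46.0 CPM. Haemoglobin made up 1% or more of UMIs in 4 APOE2, 0 APOE3 and 2 APOE4 members, and these cells held 99.3% and 92.4% of the haemoglobin UMIs of their libraries. The high levels in APOE2 and APOE4 thus lay mostly in 6 cells, and the near-identical copies Hba-a1 and Hba-a2 cannot be separated with certainty. Over the named and all other genes, leaving out the 5 cells with most UMIs of each gene, a step chosen after the data were seen, kept 50 of the 64 genes higher and 40 of the 44 lower in APOE2 than APOE3. For APOE4 it kept 97 of 105 and 27 of 31 against APOE3 and 98 of 106 and 75 of 87 against APOE2. Fn1, Serpine2 and Crispld1 were among the genes no longer 2-fold higher in APOE2 than APOE3, and Vegfd among those no longer 2-fold lower.

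Fibroblast genes that the study had chosen on these same libraries were also looked up, and since they were chosen on them they are not independent evidence. The study chose them over several fibroblast clusters and the values here cover 1 class set by a score, so the groups of cells differ and the orders cannot be compared. Of the genes named for APOE3, Lum stood at 1641, 2223 and 1708 CPM, Igfbp6, which binds IGF2, at 505, 634 and 475 CPM and the protease Fap at 54.8, 51.5 and 46.6 CPM in Hhip/Inmt fibroblasts. Lum and Igfbp6 were highest in APOE3 and Fap in APOE2, and 0 of the 3 were 2-fold apart between any pair of libraries. Of those named for APOE4, Lama2 was highest in APOE4, Mfap5 and Dcn in APOE3 and S100a4, at 301, 182 and 277 CPM, in APOE2, with 0 of 4 past 2-fold in any pair. Of Plin2, Ly6a, Medag, Fbln1, Fgf7 and C3, named for APOE2, 2 of 6 (Ly6a and C3) were past 2-fold higher in APOE2 than APOE3. Over all genes this share was 0.847%. Ly6a, C3 and Fgf7 were past 2-fold lower in APOE4 than APOE2, beside 1.16% of all genes. Fgf7, an epithelial growth factor, stood at 80.0, 40.4 and 33.6 CPM and Medag, an adipogenic factor, at 189.6, 144 and 127 CPM.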

How the data were processed

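Per the study's methods, the authors pooled aortic cells of each genotype into 1 droplet library. The deposited matrices hold UMI counts per gene and cell on mm10, made with Cell Ranger 7.0.1 per the labels and file headers. Read filters were not given in the sources used here. Counts of 32285 genes were read with Python 3.11.15, scanpy 1.11.5, numpy 2.4.6 and pandas 2.3.3. Cells were gated and scored as the report states, the UMIs of a gene were added up within a class and divided by the total of that class (CPM), and exact Poisson, Clopper-Pearson and conditional binomial 95% intervals were computed with scipy 1.17.1. With 1 library a genotype there was no test, and at least 2-fold apart served as the call, on genes with at least 100 UMIs over both groups.

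Members, gene lists and marker lists were chosen with earlier results of these data known. Named genes were the genes of the rule and label, the 15 most abundant, the 15 highest and 10 lowest against Dpp4/Pi16 fibroblasts, the 8 highest and 8 lowest in each genotype pair among those of at least 50 CPM, the 15 most variable, and members of the gene lists. Other genes, those of the Sfrp2 and Cytl1 comparisons included, were chosen after their values were seen. Intervals and calls were tried on counts simulated from the Poisson model that the intervals assume. Spread between cells, mice or libraries beyond that model was not covered. Alternatives changed the filters, score, thinning, scaling, doublet removal and gene minimum. Gene positions came from GENCODE M21 and promoter sequences from RefSeq, and the figures were drawn with matplotlib 3.10.9. Columns of other samples numbered 0. Some genes that these rules name are not reported here.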

Additional observations from a re-analysis of the deposited data

Results flagged for a closer look

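The haemoglobin genes Hba-a1, Hba-a2, Hbb-bs and Hbb-bt had ratios of opposite sign in Hhip/Inmt and Dpp4/Pi16 fibroblasts, and the difference was not tested. For APOE2 relative to APOE3, the log2 ratio in Hhip/Inmt fibroblasts was 8.76 for Hba-a1, 7.83 for Hba-a2, 8.69 for Hbb-bs and 9.87 for Hbb-bt, against -0.37, -0.67, -2.40 and -3.96 in Dpp4/Pi16 fibroblasts. For APOE4 relative to APOE3, Hbb-bs stood at 5.96 against -1.43. For APOE4 relative to APOE2, Hba-a1 stood at -2.88 against 0.56 and Hbb-bt at -4.25 against 2.82. The 4 APOE2 and 2 APOE4 members with haemoglobin at 1% of UMIs or more held 99.3% and 92.4% of these UMIs.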

How the results depend on the processing

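The order of the shares, APOE3 above APOE4 above APOE2, was the same under each alternative, while the shares themselves moved. They were 21.5%, 39.4% and 27.6% with A − B of at least 4, 18.7%, 31.7% and 22.8% with cells thinned to 2000 UMIs, 12.2%, 27.7% and 20.5% without Inmt in the score, 23.0%, 40.9% and 28.8% without Tspan11, and 23.2%, 35.6% and 27.2% without Cpxm1. With A − B of at least 1 they were 32.8% in APOE2 and 40.4% in APOE4, with Dcn at 1% of UMIs 31.8% in APOE2, and without Hhip in the score 31.0% in APOE4.

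Against Dpp4/Pi16 fibroblasts, 14 genes were higher and 43 lower with at least 300 UMIs a gene, and 269 and 419 with at least 1 UMI. Leaving out 1 library at a time gave 38 to 59 higher and 78 to 101 lower, the 59 without APOE4. Between genotypes, a minimum of 300 UMIs gave 29 genes higher and 15 lower in APOE2 than APOE3, 50 and 6 in APOE4 than APOE3, and 56 and 37 in APOE4 than APOE2. A minimum of 1 UMI gave 2587 and 2264, 2981 and 2157, and 3217 and 2347. Fewer or more genes enter under these minimums. With the 5 cells of most UMIs of each gene left out, 50 genes were lower in APOE4 than APOE3.

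Ratios changed sign for haemoglobin genes, Spp1 and Tek. Without cells with haemoglobin at 1% of UMIs, the log2 ratio of APOE4 to APOE2 was 0.95 for Hba-a1, 0.49 for Hba-a2, 0.28 for Hbb-bs and 1.99 for Hbb-bt, and that of APOE2 to APOE3 -0.02 for Hbb-bt. Without the 5 top cells of each gene, APOE4 to APOE2 was 1.53 for Hba-a1, 0.21 for Hba-a2, 0.22 for Hbb-bs and 2.18 for Hbb-bt, which then held 2 UMIs in APOE2. Spp1 stood at -0.32 (APOE4 to APOE3) with thinned cells and at 1.75 (APOE4 to APOE2) with A − B of at least 4. Tek, with few UMIs, stood at -1.60 (APOE2 to APOE3) and 1.70 (APOE4 to APOE2) with thinned cells. Both alternatives that left out such cells were chosen after seeing the data, and for Spp1 and Tek the cause was not tested.

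No paired analysis was possible because each genotype had 1 library. Depth limits genes near 3 UMIs, and the lack of replicate libraries limits every comparison between genotypes.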

Other observations

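AI507597, a gene below the level set for naming and chosen here after its values were seen, stood at 0.299, 33.8 and 39.7 CPM in Hhip/Inmt fibroblasts and at 1.13, 25 and 34.1 CPM in Dpp4/Pi16 fibroblasts. The APOE2 level in Hhip/Inmt fibroblasts was 1 UMI, against 109 and 131 UMIs in APOE3 and APOE4. The APOE2 library thus stood near 0 in both fibroblast classes.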
